A study of Mus musculus with 9 samples.

Results

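The type I interferon response was followed in hematopoietic stem and progenitor cells through 35 genes that type I interferons are known to induce. They were chosen by gene symbol from the 31053 genes of the count matrices, and each had at least 1 UMI in the cells kept (a UMI, or unique molecular identifier, tags 1 captured mRNA molecule). LSK cells (Lin- cKit+ Sca1+), the fraction of bone marrow that contains hematopoietic stem cells and multipotent progenitors, were sorted from C57BL/6 mice, frozen viably, thawed and sequenced one by one. Young mice were 10 to 12 weeks old and aged mice were over 80 weeks old, and both of these groups received cyclodextrin, the carrier. The third group, called CASIN, were aged mice given CASIN, an inhibitor of the small GTPase Cdc42, by intraperitoneal injection at 25 mg/kg every 24 h over 4 days, with harvest on day 5. Each group had 3 samples: young 1 and 2, aged 1 and CASIN 1 and 2 were sequenced in batch 1, and young 3, aged 2 and 3 and CASIN 3 in batch 2. The labels do not tell whether a sample was 1 mouse or a pool, so p-values measure only the spread between these samples, part of which may be technical.

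The 9 libraries held 19237354 to 42780953 UMIs, and 15856 of 32387 barcodes passed the filters on cells, 1112 to 2417 per sample. The batches stood apart before filtering: the median mitochondrial share per barcode was 3.35% in batch 1 and 14.0% in batch 2, and 73.8% and 34.4% of the barcodes were kept. Pairs of libraries shared at most 16 barcodes. Pairs within batch 1 shared 1 to 16, where 0.26 to 0.7 were expected from random draws of the possible barcodes. Pairs within batch 2 shared 0 to 2, where 0.3 to 0.62 were expected. The cause of the excess in batch 1 was not tested. Kit and Ly6a, which encode cKit and Sca1, the markers of the sort, lay at 112 to 225 and 87.9 to 186 CPM (UMIs scaled to 1000000 UMIs per sample). Ly6a is itself an interferon-inducible gene, so the sort gate and the response read here are not independent. Of the 5 markers listed for T and NK cells, Cd3e, Cd3d and Cd3g were under 1 CPM in every sample, Trac lay at 0.159 to 6.55 CPM and Nkg7 at 65.2 to 166 CPM. Of the 5 for macrophages, C1qa, C1qb, C1qc and Adgre1 were under 1 CPM in every sample and Vcam1 lay at 0.114 to 5.65 CPM. The summed marker level of neutrophils was 4.84 to 89.0 CPM in young, 28.3 to 420 CPM in aged and 3.02 to 56.5 CPM in CASIN samples. That of plasmacytoid dendritic cells, which are known as strong producers of type I interferon, was 5.36 to 16.3, 2.71 to 4.74 and 3.76 to 10.6 CPM. The part of these cells in the results below was not tested.

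Type I interferons, the IFN-α family and IFN-β, bind a receptor built from Ifnar1 and Ifnar2, whose kinases Jak1 and Tyk2 activate transcription factors, Stat2 among them. A complex that contains Stat2 and Irf9 binds the interferon-stimulated response element (ISRE) in the promoters of a large set of genes. The products of these genes sense foreign nucleic acids, block viral entry, translation and replication, and damp the signal itself. Stem cells are known to keep a part of this program at a steady, or tonic, level without infection, and acute interferon is known to drive hematopoietic stem cells out of quiescence.

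The promoters of 6 members are shown because these genes carry the findings: Ifitm3, its neighbors Ifitm2 and Ifitm1, and Rsad2, Ifit1 and Oasl1, which are read cell by cell below. Each window runs from 250 bases before to 30 bases after the transcription start, read 5′ to 3′ on the gene's strand, from RefSeq on build GRCm38.p6. Capitals mark matches on either strand to the ISRE core, which is GAAA, then any 2 bases, then GAAA. Ifitm3 lies at chr7:141010715-141010994 (minus strand), Ifitm2 at chr7:140955932-140956211 (minus), Ifitm1 at chr7:140967826-140968105 (plus), Rsad2 at chr12:26456423-26456702 (minus), Ifit1 at chr19:34640639-34640918 (plus) and Oasl1 at chr5:114922990-114923269 (plus).
Ifitm3: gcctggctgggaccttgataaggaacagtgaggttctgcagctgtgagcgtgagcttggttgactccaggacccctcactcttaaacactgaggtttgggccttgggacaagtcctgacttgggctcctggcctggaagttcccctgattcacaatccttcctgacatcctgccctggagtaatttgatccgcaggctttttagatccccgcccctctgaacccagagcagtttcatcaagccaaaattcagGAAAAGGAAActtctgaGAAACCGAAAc
Ifitm2: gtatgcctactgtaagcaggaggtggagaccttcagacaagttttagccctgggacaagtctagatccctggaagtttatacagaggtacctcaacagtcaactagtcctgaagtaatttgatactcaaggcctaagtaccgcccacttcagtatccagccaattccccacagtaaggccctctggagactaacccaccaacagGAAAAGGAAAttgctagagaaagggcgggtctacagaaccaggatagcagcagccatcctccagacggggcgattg
Ifitm1: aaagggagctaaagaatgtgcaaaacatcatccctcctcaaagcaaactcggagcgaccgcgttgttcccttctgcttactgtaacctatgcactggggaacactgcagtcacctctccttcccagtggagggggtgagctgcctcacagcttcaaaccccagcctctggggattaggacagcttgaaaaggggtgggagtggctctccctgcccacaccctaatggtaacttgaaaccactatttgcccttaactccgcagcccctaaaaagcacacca
Rsad2: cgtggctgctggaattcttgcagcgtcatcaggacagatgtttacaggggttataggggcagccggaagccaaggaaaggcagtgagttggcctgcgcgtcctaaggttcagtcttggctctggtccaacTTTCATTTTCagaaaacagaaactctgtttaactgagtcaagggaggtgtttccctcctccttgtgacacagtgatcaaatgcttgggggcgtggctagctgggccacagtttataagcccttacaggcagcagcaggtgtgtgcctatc
Ifit1: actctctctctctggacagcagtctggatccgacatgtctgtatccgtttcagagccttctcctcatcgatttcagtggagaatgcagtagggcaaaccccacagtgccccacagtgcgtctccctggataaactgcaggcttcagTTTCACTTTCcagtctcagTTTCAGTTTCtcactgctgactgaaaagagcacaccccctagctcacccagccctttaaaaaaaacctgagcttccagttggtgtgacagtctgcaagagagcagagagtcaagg
Oasl1: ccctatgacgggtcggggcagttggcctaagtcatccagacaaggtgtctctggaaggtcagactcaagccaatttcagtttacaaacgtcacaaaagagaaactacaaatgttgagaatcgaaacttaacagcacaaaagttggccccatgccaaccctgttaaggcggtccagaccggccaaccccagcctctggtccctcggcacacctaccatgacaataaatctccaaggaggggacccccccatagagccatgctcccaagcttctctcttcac
Ifitm3 and Ifit1 held 2 matches each, Ifitm2 and Rsad2 held 1 each, and these letters were not in the windows of Ifitm1 and Oasl1. The GENCODE annotation begins the Ifitm1 gene at chr7:140967221, before this window, and the bases around that start were not searched. For counts, the whole entries of 300 bases were searched, from 250 bases before to 50 after the start, with a gene counted once over its starts. Of the 35 members 26 matched a promoter entry, and 15 of those (57.7%) held the ISRE core, against 1079 of 27025 genes (3.99%) in windows of the same length. The core of the gamma-activated sequence (TTC, any 3 bases, GAA), searched in the same way, was in 3 of the 26 members (11.5%) and in 9.55% of all genes. Ifitm3 was one of the 3, and its match runs into the second of its ISRE cores.

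The membrane proteins gave the members' best-covered transcripts. Ifitm3, a restriction factor that blocks the fusion of enveloped viruses with endosomes, lay at 552 to 1365 CPM over the 9 samples, Ifitm1 at 506 to 1651 CPM and Ifitm2 at 629 to 954 CPM. Bst2 (tetherin), which holds budding virions at the cell surface, lay at 133 to 218 CPM. The classical induced genes were far scarcer. Isg15, a ubiquitin-like modifier, lay at 10.8 to 45.4 CPM and Irf7, the transcription factor that amplifies the response, at 6.21 to 21.6 CPM. Ifit3, an antiviral effector, lay at 0.360 to 2.67 CPM. These libraries count one 3′ end per molecule, so levels were not divided by transcript length, and Ifit3 shares near-identical sequence with Ifit3b, which makes the split of reads between these genes uncertain.

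Sequencing batch went with the level of many members. In 15 of the 34 members tested over all LSK cells every batch 1 sample lay above every batch 2 sample, against 27.5% of all 13642 genes, and these included Isg15, Usp18, Zbp1, Rtp4, Trim30a, Ifitm1, Ifitm3 and Bst2. In 3 members (Ifitm2, Stat2 and Rsad2) every batch 2 sample lay above every batch 1 sample, against 31.2% of all genes, and the other 16 overlapped. Each edgeR comparison of groups below therefore carries batch as a term, and the differences within each batch stand beside the members that turn on it. The activated share and the tonic level, tested by permutation over pooled samples with no such term, are given with their differences within each batch.

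**Figure D1:**
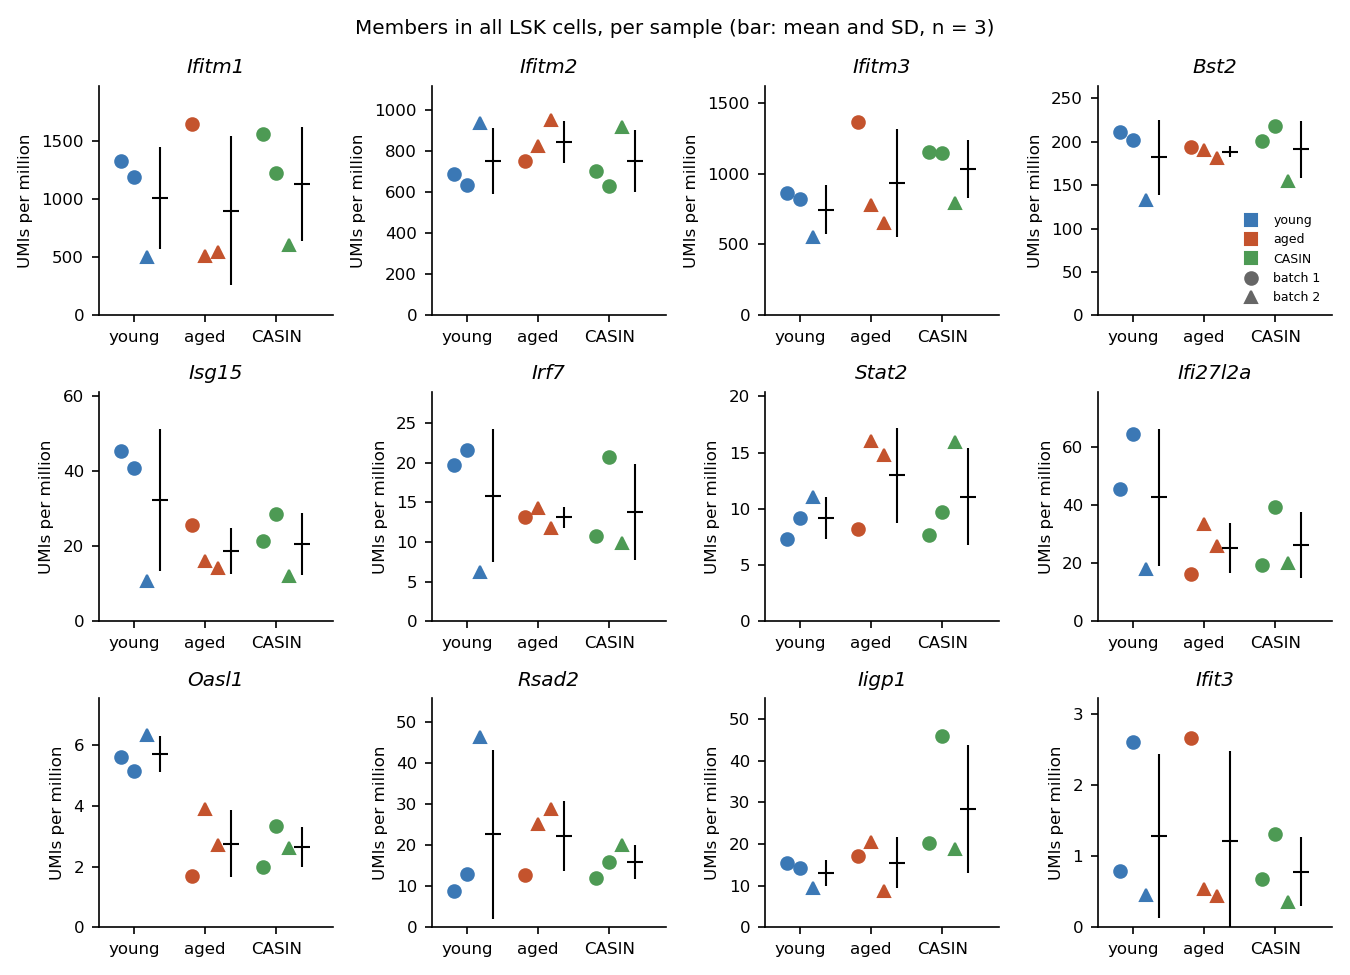
Level over all LSK cells (CPM, linear axes from 0) of 12 members in each of the 9 samples, by group, with circles for batch 1, triangles for batch 2 and bars for the mean and SD of the 3 samples. Ifitm3 is highest in aged 1 (1365 CPM), and the batch 2 sample or samples of each group sit below the batch 1 samples for Ifitm3, Ifitm1 and Isg15 and above them for Rsad2 and Stat2.

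To ask whether the program changes with age, UMIs were summed per sample over all LSK cells and tested with edgeR's quasi-likelihood test with Benjamini-Hochberg adjustment over 13642 genes. A single member, Ifitm3, rose in aged against young mice, and 0 fell. Over all genes tested 490 rose (3.59%) and 70 fell (0.513%), 4.10% in either direction, so the share of members called was not above that of all genes. The median log2 fold change of the 34 members tested was 0.01, the same as the 0.01 over all genes, 17 of the 34 had a value above 0, and their values ran from -1.17 (Oasl1) to 0.53 (Ifitm3). In such sums, a change in RNA per cell and a change in the make-up of the LSK fraction cannot be told apart: HSC-1-like cells, described below, made up 16.1%, 16.7% and 18.3% of young, 40.5%, 23.1% and 20.4% of aged and 33.4%, 29.8% and 33.5% of CASIN cells.

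Ifitm3 measured 865, 821 and 552 CPM in young 1, 2 and 3, 1365, 781 and 652 CPM in aged 1, 2 and 3, and 1150, 1145 and 795 CPM in CASIN 1, 2 and 3. The pooled groups overlap, since the batch 2 samples are low in every group, but within each batch every aged and CASIN sample lay above every young sample. With batch as a term the log2 fold change was 0.53 ± 0.10 (SE) in aged against young (adjusted p = 0.0282, edgeR) and 0.46 ± 0.10 in CASIN against young (adjusted p = 0.0409, edgeR), with n = 3 per group. The log2 ratios within batch 1 and batch 2 were 0.70 and 0.38 for aged and 0.44 and 0.53 for CASIN. The call rests on several libraries: it was lost in aged against young when young 1, young 2, aged 1, aged 2 or CASIN 1 was left out (adjusted p up to 0.135, edgeR, log2 fold change 0.36 to 0.61). In CASIN against young it was lost when young 1, young 2 or any CASIN sample was left out (adjusted p up to 0.173). Without the batch term neither call held, with adjusted p of 0.835 and 1.00 (edgeR).

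Ifitm1, at 1334, 1197 and 506 CPM in young, 1651, 517 and 546 CPM in aged and 1567, 1227 and 604 CPM in CASIN samples, split by batch rather than by group. The fitted log2 change was 0.21 in aged against young (adjusted p = 0.318, edgeR). Ifitm2, at 689, 636 and 937 CPM in young, 750, 827 and 954 CPM in aged and 706, 629 and 920 CPM in CASIN samples, split by batch in the other direction. The fitted log2 change was 0.06 (adjusted p = 0.763, edgeR). Bst2 lay at 211, 202 and 133 CPM in young, 193, 191 and 181 CPM in aged and 201, 218 and 155 CPM in CASIN samples (log2 0.22, adjusted p = 0.330, edgeR). The 3 Ifitm genes are neighbors on chromosome 7, and of them Ifitm3 alone passed the test. Whether its change differs from that of Ifitm1 or Ifitm2 was not tested.

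Among the sensors of viral nucleic acids (Ifih1, Ddx58, Dhx58, Zbp1) none passed the test in aged against young mice. Ifih1 (MDA5), the sensor of long double-stranded RNA, was at 13.3, 12.8 and 15.1 CPM in young, 19.5, 14.5 and 13.4 CPM in aged and 16.6, 15.2 and 14.0 CPM in CASIN samples. The fitted log2 change was 0.26 in aged against young (adjusted p = 0.333, edgeR). The groups overlap, and aged 1 is the high sample.

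The 3 signaling and transcription factors (Stat2, Irf7, Irf9) did not pass either. Irf7 was at 19.7, 21.6 and 6.21 CPM in young, 13.2, 14.3 and 11.8 CPM in aged and 10.7, 20.7 and 9.89 CPM in CASIN samples. The fitted log2 change was 0.13 in aged against young (adjusted p = 0.884, edgeR). Stat2 was at 7.32, 9.21 and 11.1 CPM in young, 8.17, 16.0 and 14.8 CPM in aged and 7.63, 9.71 and 15.9 CPM in CASIN samples (log2 0.21, adjusted p = 0.514, edgeR). Young 3 is the lowest sample for Irf7, and the batch 2 samples are the high ones for Stat2.

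Isg15, with its protease Usp18 and the ligase Herc6 the arm that modifies proteins and damps the signal, was at 45.4, 40.8 and 10.8 CPM in young, 25.7, 16.2 and 14.3 CPM in aged and 21.4, 28.7 and 12.1 CPM in CASIN samples. The highest values are those of young 1 and 2 and the lowest that of young 3, so the young samples span the range of all 9. The log2 fold change was -0.21 in aged against young (adjusted p = 0.675, edgeR) and -0.55 in CASIN against young (adjusted p = 0.184, edgeR). Ifit3, at 0.797, 2.60 and 0.452 CPM in young, 2.67, 0.541 and 0.435 CPM in aged and 0.684, 1.31 and 0.360 CPM in CASIN samples, is low everywhere. The fitted log2 change was 0.41 in aged against young (adjusted p = 0.689, edgeR).

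Oasl1, a member of the oligoadenylate synthetase family that is known to hold back translation of Irf7, came closest to the threshold of the members that did not pass. It was at 5.61, 5.15 and 6.32 CPM in young, 1.69, 3.88 and 2.70 CPM in aged and 1.99, 3.32 and 2.63 CPM in CASIN samples. All 3 young samples lay above all 6 others, but 62.5% of the UMIs of young 3 came from 3 cells. With the 3 highest cells of each sample left out, young 3 lay at 2.37 CPM, below aged 2 (2.57 CPM) and CASIN 2 (2.92 CPM). The log2 fold change was -1.17 ± 0.29 in aged against young (adjusted p = 0.0554, edgeR) and -1.12 ± 0.27 in CASIN against young (adjusted p = 0.0518, edgeR). DESeq2 (Benjamini-Hochberg) placed both past the threshold, with adjusted p of 0.00503 and 0.00506, and so did edgeR in aged against young on cells with at most 5% mitochondrial UMIs (adjusted p = 0.0310).

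The GTPases Iigp1 and Gbp2, which attack the vacuoles of intracellular pathogens, did not pass. Gbp2 was at 19.1, 16.4 and 8.98 CPM in young, 20.6, 17.3 and 12.7 CPM in aged and 19.5, 25.2 and 16.0 CPM in CASIN samples (log2 0.44 in aged and 0.47 in CASIN against young, adjusted p = 0.196 and 0.141, edgeR). Iigp1 was at 15.5, 14.3 and 9.54 CPM in young, 17.1, 20.6 and 8.79 CPM in aged and 20.3, 46.0 and 18.7 CPM in CASIN samples. The fitted log2 change was 1.08 in CASIN against young (adjusted p = 0.104, edgeR). The CASIN samples lie above all young samples, and CASIN 2 stands apart as the high one.

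The 4 ADP-ribosyl and ubiquitin enzymes (Parp9, Parp14, Dtx3l, Trim30a) ran from -0.07 to 0.13 in aged against young, and the 7 other members (Rtp4, Ifi27l2a, Ifi203, Ifi35, Ifi44, Xaf1, Samd9l) from -0.47 to 0.46, with 0 past the threshold by edgeR and 0 at an unadjusted p under 0.05, where 22.0% of all genes stood. Ifi44 was at 16.2, 17.3 and 6.55 CPM in young, 19.0, 12.6 and 8.16 CPM in aged and 17.0, 25.1 and 7.95 CPM in CASIN samples (log2 0.46 in aged against young, adjusted p = 0.266, edgeR). Ifi27l2a, which encodes a mitochondrial protein, was at 45.6, 64.4 and 17.8 CPM in young, 16.2, 33.4 and 25.9 CPM in aged and 19.4, 39.3 and 19.9 CPM in CASIN samples (log2 -0.47, adjusted p = 0.640, edgeR). Aged 1 and young 3 are its low samples, and the groups overlap.

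To ask whether CASIN moves the program in aged mice, the CASIN samples were set against the aged ones. By edgeR, 0 of the 34 members and 0 of all 13642 genes passed the adjusted threshold. At an unadjusted p under 0.05 there were 439 genes (3.22%) but 0 members, and DESeq2 also called 0 genes. The median log2 fold change of the members was -0.07, against -0.01 over all genes, 10 of the 34 were above 0, and their values ran from -1.06 (Ifit3) to 0.61 (Iigp1). The members with the lowest unadjusted p were Ifit3 (log2 -1.06), Dhx58, a regulator of the RNA sensors (-0.36), Iigp1 (0.61), Isg15 (-0.34), Parp14, an ADP-ribosyltransferase (0.20), and Bst2 (-0.15), each with an adjusted p of 0.987 by edgeR. Dhx58 lay at 8.22, 8.80 and 6.37 CPM in aged and 7.29, 8.20 and 5.65 CPM in CASIN samples, and Parp14 at 15.7, 24.9 and 28.9 CPM and 19.0, 24.8 and 27.9 CPM. Irf7 (log2 -0.27), Stat2 (-0.01), Ifitm1 (-0.05), Ifitm2 (-0.07), Ifitm3 (-0.07) and Ifi27l2a (-0.21) did not pass.

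CASIN against young gave counts like those of aged against young, with which it shares the young samples. Again 1 member rose (Ifitm3) and 0 fell, against 519 genes higher (3.80%) and 63 lower (0.462%), 4.27% in either direction by edgeR. The members' median was -0.04 against -0.00 over all genes. Beside Oasl1, Iigp1, Gbp2 and Isg15, the lowest unadjusted p among the members that did not pass belonged to Dtx3l, a ubiquitin ligase that works with Parp9, at 28.0, 29.7 and 13.3 CPM in young and 30.8, 37.8 and 17.2 CPM in CASIN samples (log2 0.27, adjusted p = 0.177, edgeR), and to Dhx58, at 11.5, 11.2 and 5.99 CPM in young samples (log2 -0.44, adjusted p = 0.202, edgeR). Within each batch the CASIN samples lay above the young ones for Dtx3l and below them for Dhx58.

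**Figure D2:**
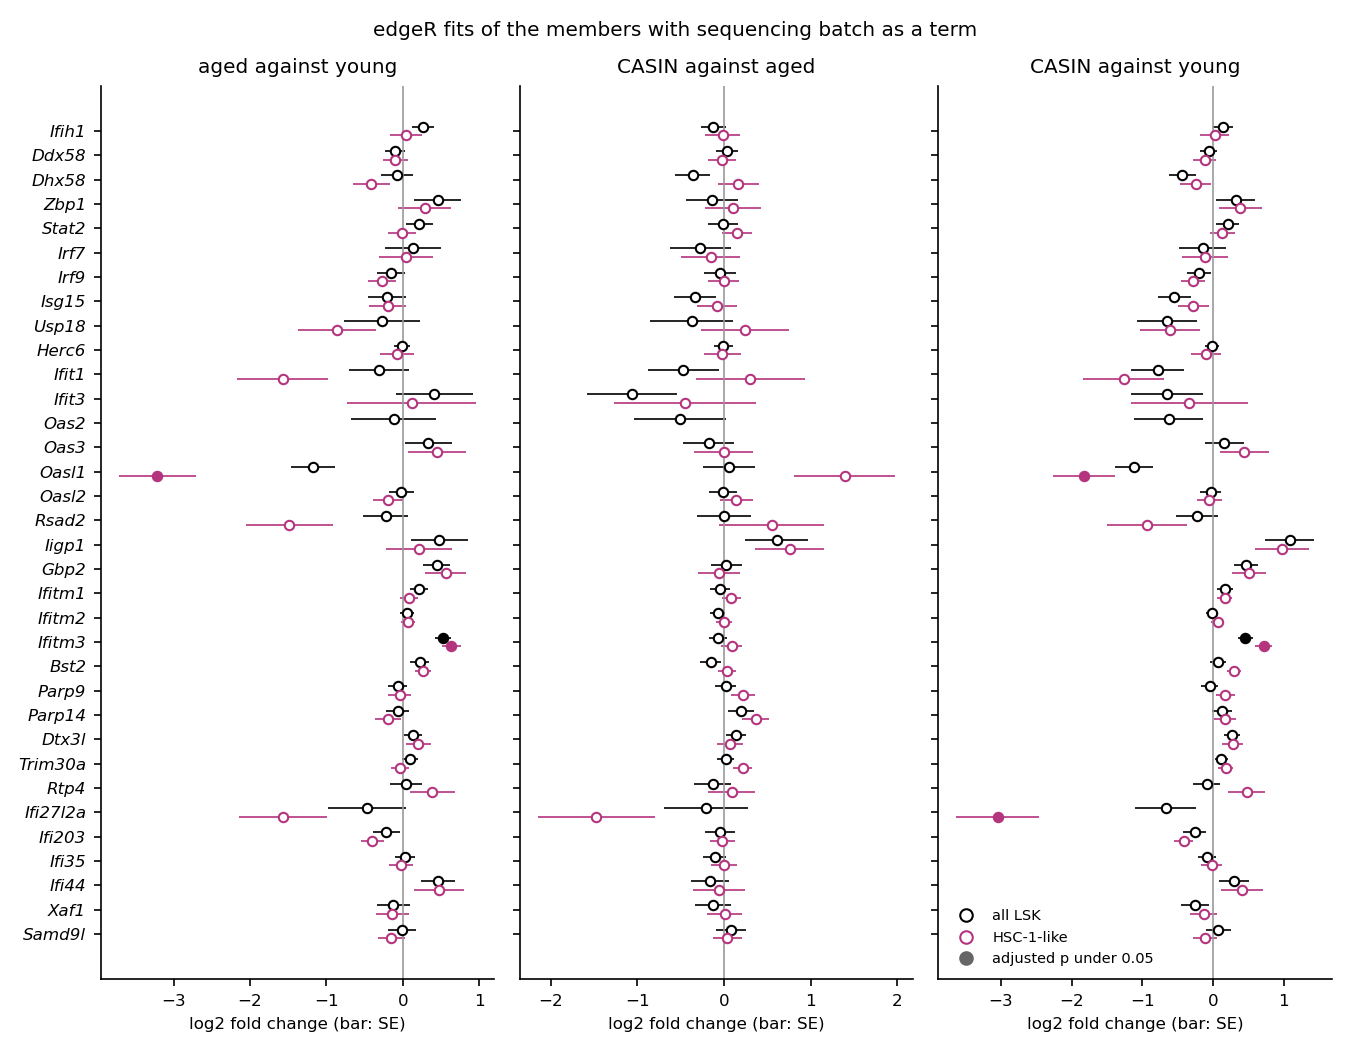
Log2 fold change of each member tested (edgeR, batch as a term), in all LSK cells (black) and in HSC-1-like cells (purple), in aged against young, CASIN against aged and CASIN against young, with bars of 1 SE and filled points past the adjusted threshold. In all LSK cells Ifitm3 is the member past the threshold in aged and in CASIN against young (0.53 and 0.46), 0 members are past it in CASIN against aged, and Oasl1 lies at -1.17 and -1.12.

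LSK cells hold stem cells and primed progenitors, and the members were next compared between these within the same samples. Cells were clustered without the members and without other interferon genes, and classes were named from markers. The 10 leading genes of the 4025 HSC-1-like cells included the stem cell genes Nupr1, Sult1a1 and Jam2, beside Tm4sf1, Ramp2, Cldn5 and Cavin2. Those of the 2678 LMPP-like cells, or lymphoid-primed progenitors, included Dntt, the terminal transferase of early lymphoid cells, and Satb1. Wfdc17 came first among them, and the chemokine genes Ccl3 and Ccl4 were also there. Of the 34 members tested, 10 were higher and 9 lower in HSC-1-like cells (edgeR with sample as a block, Benjamini-Hochberg), against 28.2% and 28.9% of all 11914 genes, 57.1% in either direction. The median was -0.02 for the members and -0.00 for all genes. The share of members called is close to that of all genes, so the count itself says nothing particular about the members, and their values are given as a description of which member lies where.

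The members higher in HSC-1-like cells were the GTPases Iigp1 (log2 1.55) and Gbp2 (0.85), the sensors Ifih1 (1.14) and Zbp1 (0.61), which binds Z-form nucleic acids, the membrane proteins Ifitm1 (1.02, adjusted p = 2.6e-08, edgeR) and Ifitm3 (0.96), and Samd9l, Trim30a, Herc6 and Ifi44 (0.77 to 0.33). Lower were Ifi27l2a (-4.12, adjusted p = 2.4e-07, edgeR), the oligoadenylate synthetases Oas2 (-1.63) and Oas3 (-0.52), which activate the RNA-degrading enzyme RNase L, Irf7 (-1.13), Ifi203 (-0.60), Xaf1 (-0.55), Bst2 (-0.35), Ddx58 (-0.24) and Ifi35 (-0.23). By role, the higher members were 2 of 2 GTPases, 2 of 4 sensors, 2 of 4 membrane proteins, 1 of 3 of the feedback arm, 1 of 4 ADP-ribosyl and ubiquitin enzymes and 2 of 7 others. The lower ones were 4 of 7 others, 2 of the 7 RNA and lipid effectors tested, 1 of 4 sensors, 1 of 4 membrane proteins and 1 of 3 signaling factors. Ifitm1, Iigp1 and Ifih1 were higher, and Irf7 and Ifi27l2a lower, in HSC-1-like cells in 9 of 9 samples. With any single sample left out, 17 to 19 members passed.

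**Figure D3:**
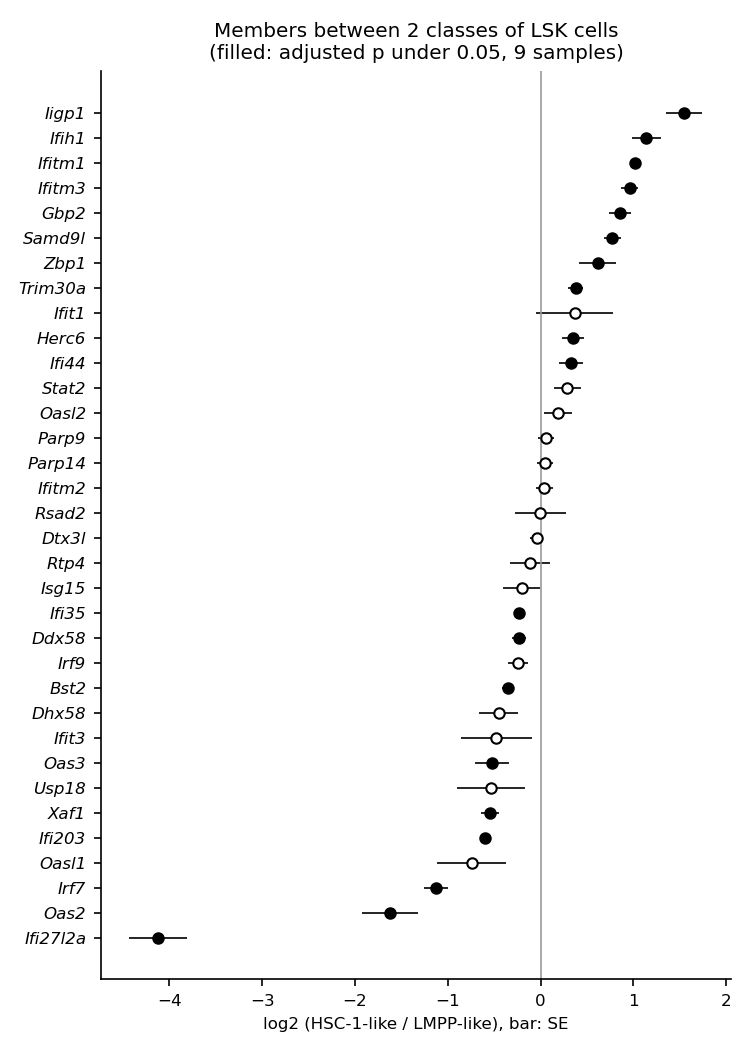
Log2 fold change of the 34 members tested between HSC-1-like and LMPP-like cells of the same 9 samples (edgeR, sample as a block), with bars of 1 SE and members past the adjusted threshold marked. Iigp1 (1.55) heads the 10 members higher in HSC-1-like cells, and Ifi27l2a (-4.12) the 9 lower ones.

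Within HSC-1-like cells, with 11606 genes and 33 members tested, 2 members passed between aged and young mice, a share not above that of all genes. Ifitm3 rose and Oasl1 fell in aged against young mice, against 711 genes higher (6.13%) and 309 lower (2.66%), 8.79% in either direction by edgeR. The members' median was -0.04. Ifitm3 was at 1315, 1254 and 675 CPM in young, 1875, 1229 and 871 CPM in aged and 1863, 2003 and 1170 CPM in CASIN samples. The log2 fold change was 0.63 ± 0.12 in aged against young (adjusted p = 0.00782, edgeR), with within-batch ratios of 0.55 and 0.64. Within each batch the aged samples are above the young ones. This call was lost without aged 1 alone (adjusted p = 0.0722, edgeR) and without the batch term (adjusted p = 0.814).

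Oasl1 was at 4.13, 3.29 and 21.9 CPM in young, 0.585, 1.76 and 1.19 CPM in aged and 1.94, 2.32 and 2.30 CPM in CASIN samples, from 18, 14 and 56, then 4, 7 and 4, then 10, 12 and 17 UMIs. All young samples are above all others and young 3 stands far apart: its 56 UMIs came from 3 of 220 cells, 41 of them from 1 cell. No other HSC-1-like cell of young 3 held an Oasl1 UMI. The order within batch 2, where aged 2, aged 3 and CASIN 3 had 7, 4 and 17 UMIs, thus rests on these 3 cells. The log2 fold change was -3.21 ± 0.50 in aged against young (adjusted p = 0.00224, edgeR). Without young 3 it was -2.02 (adjusted p = 0.0240, edgeR), and it stayed past the threshold with any 1 sample left out, but not without the batch term (adjusted p = 0.344). The same 3 cells of young 3 held 98 of the 102 Ifit1 UMIs and 269 of the 302 Rsad2 UMIs of that sample's HSC-1-like cells.

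For CASIN against aged, 0 members and 0 genes passed in HSC-1-like cells by edgeR, and DESeq2 also called 0 genes. In all, 402 genes (3.46%) had an unadjusted p under 0.05, among them the members Oasl1 (log2 1.39), Parp14 (0.37) and Ifi27l2a (-1.48). The median was 0.04.

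In HSC-1-like cells of CASIN against young mice, 3 members passed against 1023 genes higher (8.81%) and 702 lower (6.05%), 14.9% in either direction, with a median of -0.02. Here too the share of members called was not above that of all genes. Ifitm3 rose (log2 0.72 ± 0.12, adjusted p = 0.00187, edgeR) with any sample left out. Ifi27l2a was at 9.18, 13.6 and 5.09 CPM in young, 0.878, 4.78 and 5.63 CPM in aged and 0.776, 1.55 and 1.08 CPM in CASIN samples, and fell (log2 -3.04 ± 0.58, adjusted p = 0.00431, edgeR). Every CASIN sample lay below every young sample, on 4, 8 and 8 against 40, 58 and 13 UMIs, and the call held with any sample left out but not without the batch term (adjusted p = 0.166). In aged against young mice the same gene went down in batch 1 (log2 ratio -3.70) and not in batch 2 (0.03). Oasl1 fell as well (log2 -1.82 ± 0.44, adjusted p = 0.0144, edgeR), but not without young 3 (-0.90, adjusted p = 0.170) or without CASIN 3 (-0.88, adjusted p = 0.232).

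LMPP-like cells gave 0 member calls in any comparison (edgeR, 33 members and 10829 genes tested), against 0.166%, 0% and 0.0739% of all genes in aged against young, CASIN against aged and CASIN against young. DESeq2 also called 0 members, but edgeR with no filter on low counts called 2 in CASIN against aged and 5 in CASIN against young. Of all 17717 genes in those fits, 25 rose and 66 fell in CASIN against aged, and 98 and 36 in CASIN against young. At an unadjusted p under 0.05, where 8.59%, 5.03% and 6.11% of all genes stood in the same order, Ifitm1 (0.27) and Ifitm3 (0.21) were above 0 in aged against young, Isg15 (-0.89) and Ifit1 (-1.81) were below 0 in CASIN against aged, and Iigp1 (0.95) was above and Usp18, Isg15, Rsad2 and Dhx58 were below 0 in CASIN against young. Ifitm3 was at 757, 665 and 479 CPM in young, 764, 600 and 545 CPM in aged and 738, 727 and 560 CPM in CASIN samples, and the pooled groups overlap. Within each batch the aged samples were above the young ones, in batch 1 by 764 against 757 and 665 CPM. The CASIN samples of batch 1 lay between young 1 and young 2. The remaining classes with at least 20 cells in every sample (MPP3-like, CC-1-like, HSC-3-like, MPP1-like and the unnamed clusters 4 and 6) gave 0 member calls by edgeR in each comparison, with 16 to 33 members tested and 0 to 5 at an unadjusted p under 0.05. Over all genes, 1.55% (MPP3-like), 0.241% (CC-1-like), 1.88% (HSC-3-like), 0.848% (MPP1-like), 0.745% (cluster 4) and 0.171% (cluster 6) passed in aged against young. In CASIN against young these shares were 0.250%, 0.180%, 2.53%, 0.944%, 0.451% and 0.142%, and in CASIN against aged they were 0%. At an unadjusted p under 0.05 stood 15.3%, 11.1%, 12.9%, 11.4%, 9.89% and 7.91% of all genes in aged against young, in the same order of classes. The shares were 4.80%, 7.70%, 4.07%, 3.89%, 6.75% and 5.16% in CASIN against aged and 13.2%, 8.22%, 13.6%, 11.3%, 9.58% and 5.79% in CASIN against young.

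The difference between the classes was tested itself, as an interaction of class and group. The change of Ifitm3 in aged against young was larger in HSC-1-like than in LMPP-like cells by 0.42 ± 0.09 log2 units (adjusted p = 0.0157, edgeR). That of Ifi27l2a differed by -1.56 ± 0.35 (adjusted p = 0.0207, edgeR), and 2.36% of all genes passed. With 1 sample left out, Ifitm3 passed in 6 of 9 fits, failing without young 1, aged 1 or aged 2 (adjusted p up to 0.246, edgeR, difference 0.35 to 0.52), and Ifi27l2a passed in 5 of 9, failing without young 1, young 2, aged 1 or aged 2 (adjusted p up to 0.579, edgeR, difference -2.12 to -0.77). In CASIN against young the differences were 0.59 ± 0.08 for Ifitm3 (adjusted p = 0.000302, edgeR) and -2.94 ± 0.36 for Ifi27l2a (adjusted p = 9.4e-05). Here 5.97% of all genes passed, and both differences held with any sample left out. Ifi27l2a in LMPP-like cells was at 83.4, 102 and 38.6 CPM in young, 52.8, 70.1 and 57.0 CPM in aged and 46.9, 97.5 and 53.1 CPM in CASIN samples, which overlap. In CASIN against aged 0 members passed (edgeR), with 6 members and 526 genes (4.41%) at an unadjusted p under 0.05. Above 0 were Ifit1 (2.23), Dhx58 (0.87), Isg15 (0.80), Ifitm1 (0.30) and Bst2 (0.26), and below 0 was Ifi27l2a (-1.38). The median was 0.25 for the members and -0.01 for all genes.

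A few strongly induced cells can set the mean of a rare transcript, so the members were next read cell by cell. The 3 cells of a sample with the most UMIs of a gene held, as a median over the samples, 0.622% of the UMIs of Ifitm2, 1.06% of Ifitm3, 1.03% of Ifitm1 and 2.21% of Bst2. They held 8.93% (4.64% to 16.4% over the samples) for Isg15, 16.1% (6.60% to 62.5%) for Oasl1, 15.6% (4.21% to 38.0%) for Rsad2, 20% (5.00% to 78.8%) for Ifit1 and 41.7% (25.0% to 77.8%) for Ifit3, which had under 20 UMIs in some samples. The related effectors Oas3 (5.21%) and Oasl2 (4.41%) lay lower. A gene with few UMIs has a high share in its top cells by its count alone, so these shares describe each gene and do not rank genes of different levels. Rsad2 (viperin), which makes a chain-terminating nucleotide, lay at 8.80, 12.9 and 46.3 CPM in young, 12.6, 25.3 and 28.8 CPM in aged and 11.9, 15.8 and 20.03 CPM in CASIN samples, highest in young 3.

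**Figure D4:**
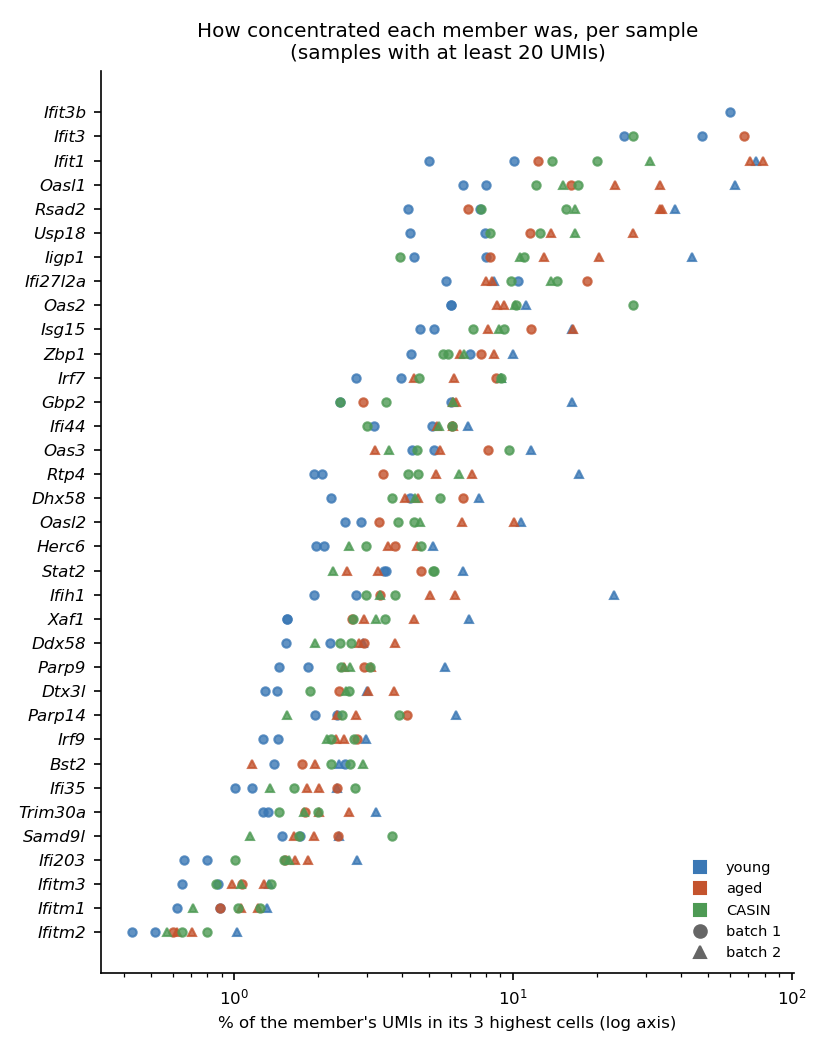
Percent of a member's UMIs found in the 3 cells of a sample with the most UMIs of it, by member on a log axis, 1 point per sample with at least 20 UMIs of it, colored by group and shaped by batch. Ifitm2 has a median of 0.622%, and single samples reach 62.5% for Oasl1 and 78.8% for Ifit1.

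To separate the highly activated cells from the tonic level of the rest, each cell was thinned to 4000 UMIs, and a cell was called activated when at least 4 of 12 strongly inducible members had a UMI (Ifit1, Ifit3, Ifit3b, Isg15, Rsad2, Oasl1, Oasl2, Usp18, Oas2, Oas3, Ifi44, Rtp4). Thinning left out 332 shallower cells (77 young, 134 aged, 121 CASIN). Of the cells read, 171 of 15524 (1.10%) were activated, 101 in young, 22 in aged and 48 in CASIN samples. Most cells (91.2%) had a UMI of 0 or 1 of the 12 genes. The number of cells fell steadily from there, with 938, 250, 103, 32 and 22 cells at 2, 3, 4, 5 and 6 genes. No gap set the activated cells apart, and 103 of the 171 lie at the cut itself. The activated cells are thus the upper tail of a continuous spread. Activated cells were not deeper than the rest, with a median of 10844 against 11868 UMIs before thinning, and 6 of them were among the doublet calls.

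The activated share was 1.98%, 2.39% and 0.595% in young 1, 2 and 3, with exact (Clopper-Pearson) 95% intervals of 1.43% to 2.66%, 1.79% to 3.12% and 0.239% to 1.22%. It was 0.782%, 0.366% and 0.239% in aged 1, 2 and 3 (0.405% to 1.36%, 0.134% to 0.795% and 0.0652% to 0.611%) and 0.995%, 1.55% and 0.425% in CASIN 1, 2 and 3 (0.498% to 1.77%, 1.03% to 2.25% and 0.204% to 0.780%). These intervals cover counting error only. Young 1 and 2 are the highest samples and aged 2 and 3 the lowest, the batch 2 samples are the low ones within every group, and young and aged samples overlap through young 3 and aged 1.

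The share was 1.19 percentage points lower in aged than in young samples (difference -1.19, two-sided exact permutation p = 0.2, n = 3 per group, where the smallest p possible is 0.1), and lower within each batch (-1.40 and -0.292). It was 0.528 points higher in CASIN than in aged samples (exact permutation p = 0.2, within batches 0.491 and 0.122) and differed by -0.663 points from young (exact permutation p = 0.3, within batches -0.910 and -0.170). A cut of 6 genes gave -0.198 points for aged against young and thinning to 2000 UMIs gave -0.371 points, both at the smallest p of 0.1 (exact permutation). CASIN against young was at 0.1 in the same settings as well, with -0.131 and -0.415 points (exact permutation). Thinned to 2000 UMIs, the mean share was 0.165% in CASIN and 0.210% in aged samples, with differences of -0.265 and 0.0354 points within batches 1 and 2. With a cut of 3 genes, CASIN against aged differed by 1.82 and -0.0458 points within batches 1 and 2. A cut of 6 gave 0.0187 and -0.00596 points, so the rise within both batches did not hold in these settings. Without thinning, the means were 8.85% in young, 3.28% in aged and 5.63% in CASIN samples. The differences within batch 2 then turned, to 0.469 points for aged against young and -0.854 for CASIN against aged. A permutation of 3 against 3 pooled samples cannot pass 0.05.

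Activated cells were found in both ends of the compartment. Pooled over samples, they made up 2.06% of LMPP-like (55 of 2666), 1.38% of cluster 6 (9 of 653) and 1.18% of HSC-1-like cells (47 of 3979). The share was 0.975% in MPP3-like and 0.0918% in CC-1-like cells (1 of 1089), a class led by histone genes. Before thinning, CC-1-like cells had a median of 24558 UMIs, against 13113 in LMPP-like and 9858 in HSC-1-like cells. Thinning to the same depth thus kept a smaller part of the UMIs of CC-1-like cells. Whether this lowered the share of CC-1-like cells called activated was not tested. By sample, the share in LMPP-like cells was 3.79%, 4.46% and 0.478% in young, 1.76%, 1.08% and 0% in aged and 1.95%, 0.602% and 1.09% in CASIN samples. That in HSC-1-like cells was 2.04%, 3.26% and 1.38% in young, 0.638%, 0% and 0.292% in aged and 1.35%, 2.48% and 0.249% in CASIN samples. The counts of 0 were of 280 LMPP-like cells in aged 3, which allows a share of up to 1.07%, and of 381 HSC-1-like cells in aged 2 (up to 0.787%). The share was higher in LMPP-like cells in 6 of the 9 samples and in HSC-1-like cells in the 3 others (young 3, aged 3 and CASIN 2), and young 3 lay below aged 1 and aged 2 in LMPP-like cells. These shares carry no test.

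The members outside the calling list were then compared between activated cells and the rest. Of these 23 members, 21 were over 1.5 times as high in activated cells as in the rest, with a median ratio of 3.18, and 20 were higher in at least 7 of the 9 samples. Such ratios were not computed for genes outside the members, so these counts have no share over all genes beside them. Some samples rest on few activated cells, with 4 in aged 3, 6 in aged 2 and 7 in young 3. The ratio was 9.53 for Zbp1 and 9.05 for Irf7, and 0.880 for Ifitm2. All these ratios pool the cells of all samples. Of the activated cells, 144 were in batch 1 and 27 in batch 2, so the ratios mix batch with activation. By sample, Zbp1 and Irf7 were higher in activated cells in 8 of the 9 samples and Ifitm2 in 4. The sum of the 20 members other than Ifitm1, Ifitm2 and Ifitm3 was 6.00 to 13.7 UMIs per cell in activated cells and 2.02 to 3.94 in the rest, higher in 9 of 9 samples. Activated cells held 57.0% of the thinned UMIs of Ifit3, 39.4% of Ifit1, 31.4% of Oasl1, 30.4% of Rsad2 and 20.7% of Isg15, genes used to call them, but 1.88% of Ifitm3.

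The tonic level, the mean of the summed thinned UMIs of the 23 other members over the cells not activated, was 16.6, 15.3 and 10.2 UMIs per cell in young, 19.1, 11.8 and 11.4 in aged and 18.04, 17.1 and 12.1 in CASIN samples. Batch 2 samples are the low ones in every group. The pooled difference of aged and young samples was 0.0629 UMIs (exact permutation p = 1), while within batches it was 3.17 and 1.38. CASIN differed from aged by 1.66 (exact permutation p = 0.8, within batches -1.53 and 0.519) and from young by 1.73 (exact permutation p = 0.5, within batches 1.64 and 1.90). Ifitm1, Ifitm2 and Ifitm3 gave most of this sum: without them it was 3.78, 3.83 and 2.02 in young, 2.98, 2.62 and 2.50 in aged and 3.05, 3.94 and 2.30 in CASIN samples. Without them the difference of aged and young samples was -0.824 within batch 1 and 0.539 within batch 2. With all 23 members, the level in HSC-1-like cells was 23.3, 21.2 and 10.8 in young and 22.4, 14.2 and 12.6 in aged samples. In LMPP-like cells it was 14.3, 12.7 and 9.95 in young and 14.8, 10.5 and 10.96 in aged samples. How far the make-up of the samples by class set the differences within batches was not tested.

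**Figure D5:**
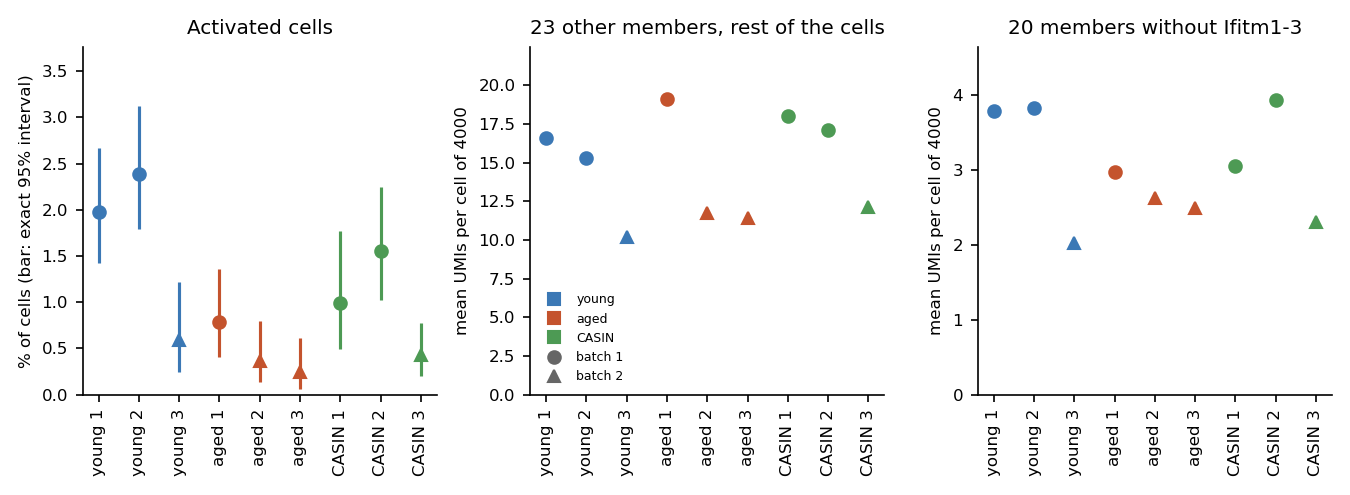
Activated cells as a percent of the cells read, with exact 95% intervals, and the tonic level as the mean summed UMIs of 23 members per cell not activated, for each of the 9 samples, by group and batch, with the same level for 20 members without Ifitm1, Ifitm2 and Ifitm3 in the last panel. The activated share runs from 0.239% (aged 3) to 2.39% (young 2), and the tonic level from 10.2 (young 3) to 19.1 UMIs (aged 1).

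With the activated cells left out, the sums over the other cells gave the same kind of result. Of the 23 members outside the calling list, Ifitm3 rose in aged against young (log2 0.53, adjusted p = 0.0284, edgeR) and in CASIN against young (0.46, adjusted p = 0.0404, edgeR), where 3.97% and 4.10% of all 13613 genes passed. In CASIN against aged 0 members passed by edgeR or DESeq2 and 0 had an unadjusted p under 0.05, against 454 genes (3.34%). Ifih1 (0.40, adjusted p = 0.0968, edgeR) came nearest to the threshold in aged against young mice among the others.

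The remaining genes of the pathway were read from a list of 73, of which 72 were in the matrices and 48 could be tested over all LSK cells. In aged against young mice 4 of them rose and 1 fell (edgeR, Benjamini-Hochberg), where 3.59% of all genes rose and 0.513% fell. Those that rose were Lgals3bp, a secreted glycoprotein (log2 0.89, adjusted p = 0.0111), Phf11d (1.70, 0.0141), Socs3, a feedback inhibitor of cytokine receptors (1.08, 0.0196), and Uba7, the enzyme that activates Isg15 (1.17, 0.0239). Ifnar2, a chain of the receptor, fell (log2 -0.46, adjusted p = 0.0376, edgeR). Ifnar2 was at 104, 112 and 83.1 CPM in young, 74.4, 57.9 and 61.2 CPM in aged and 87.3, 98.8 and 58.3 CPM in CASIN samples. All aged samples are below all young samples. In CASIN against young, where 3.80% of all genes rose, the same 4 rose (log2 0.75 to 1.27, adjusted p up to 0.0416, edgeR) and Ifnar2 did not pass (-0.33, adjusted p = 0.0869).

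Uba7 was at 46.9, 50.1 and 25.6 CPM in young, 161, 40.8 and 33.2 CPM in aged and 119, 119 and 47.3 CPM in CASIN samples, with aged 1 the highest and young 3 the lowest. Lgals3bp was at 37.8, 35.03 and 38.7 CPM in young, 71.6, 75.05 and 54.4 CPM in aged and 64.1, 68.4 and 57.1 CPM in CASIN samples, and every aged and CASIN sample is above every young one. Ifnar1, the other chain of the receptor, had log2 fold changes of -0.14, 0.16 and 0.02 in aged against young, CASIN against aged and CASIN against young, and did not pass the threshold. In CASIN against aged 0 of the 48 passed by edgeR, with 4 at an unadjusted p under 0.05. The ligands themselves were barely captured: of 18 type I interferon genes in the matrices 12 had 0 UMIs in the cells kept, and all 18 together had 55 UMIs, or 9 without Ifnz.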

How the data were processed

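LSK cells of 9 samples were measured with 10x 3′ single-cell libraries. The deposited matrices hold UMI counts per gene and barcode, not normalized, made by the authors with Cell Ranger 3.1.0 on mm10, per the labels' processing notes. After the study's methods, barcodes with at most 10% mitochondrial UMIs, at most 6000 genes, 1000 to 40000 UMIs and a residual of genes on UMIs within 0.4 were kept. Clusters were made in Seurat 5.3.0 (SCTransform, 30 CCA dimensions, 35 principal components, resolution 0.4), on integrated components rather than a corrected matrix and without 108 interferon genes, members included. Class names are thus rebuilt, from markers, and can differ from the study's. Scrublet (scanpy 1.11.5) called 67 doublets (0.423%) by its automatic threshold, too few to trust, and 477 (3.008%) by the expected rate; these were kept and left out in an alternative.

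UMI counts were summed per sample and class and tested with edgeR 4.0.16 (quasi-likelihood, TMM, filterByExpr, batch as a term, all 9 samples, R 4.3.3) in place of the study's test over cells, with Benjamini-Hochberg adjustment at 0.05 and DESeq2 1.42.0 as an alternative. Values per sample are counts scaled to 1000000 UMIs (CPM). On simulated counts of aged against young over 13442 genes, 74% of genes changed by 1 log2 unit and 94% of those changed by 2 were called. Of 13246 unchanged genes, 14 were called. The simulation covered sums over all LSK cells only. It gives no rate for single classes, for CASIN against aged or for members with few UMIs in particular. Activated shares and tonic levels, on cells thinned to 4000 UMIs, were tested by exact permutation (Python 3.11.15, scipy 1.17.1). Isg15, Ifit3, Irf7, Stat2, Bst2, Ifitm1, Ifitm2, Ifitm3 and Ifi27l2a were always named, then members past the threshold over all LSK cells and the 6 with the lowest unadjusted p where fewer than 6 passed, and of the other pathway genes those past the threshold, Ifnar1 and Ifnar2. A further gene that this rule names is not reported here. The members and lists were chosen with earlier results of these data known.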

Additional observations from a re-analysis of the deposited data

Results flagged for a closer look

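Of the results, 4 stood out because the change of a member differed between classes of cells by the test of the difference itself (edgeR, interaction of class and group, Benjamini-Hochberg). In aged against young the change in HSC-1-like cells less that in LMPP-like cells was 0.42 for Ifitm3 (adjusted p = 0.0157) and -1.56 for Ifi27l2a (adjusted p = 0.0207). In CASIN against young it was 0.59 for Ifitm3 (adjusted p = 0.000302) and -2.94 for Ifi27l2a (adjusted p = 9.4e-05). These were the only calls among the 34 members tested. Over all 11914 genes, 84 passed above 0 and 197 below in aged against young, and 226 and 485 in CASIN against young. In CASIN against young the share of members called is close to that of all genes.

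In CASIN against young both differences were past the threshold with any 1 of the 9 samples left out, a check chosen after seeing the data (0.55 to 0.62 for Ifitm3 and -3.35 to -2.76 for Ifi27l2a). In aged against young, Ifitm3 was not past it without young 1 (0.39, adjusted p = 0.0745, edgeR), aged 1 (0.35, adjusted p = 0.246) or aged 2 (0.35, adjusted p = 0.0685), and Ifi27l2a was not past it without young 1 (-1.57, adjusted p = 0.0532), young 2 (-1.42, adjusted p = 0.0835), aged 1 (-0.77, adjusted p = 0.579) or aged 2 (-1.59, adjusted p = 0.0530). Without aged 1, Ifi27l2a was past it in CASIN against aged (-2.03, adjusted p = 0.0485, edgeR). Groups of 3 samples are too small for the check of single samples that stand far from the rest of their group, and none was made.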

How the results depend on the processing

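The number of members past the threshold changed with the batch term, the test and the filter on low counts. In all LSK cells, aged against young gave 1 member call and 2 by DESeq2, 2 with no filter on low counts, 2 with a mitochondrial limit of 5% and 0 without the batch term. Over all genes these 4 settings called 797 higher and 338 lower of 13642, 834 and 214 of 20940, 284 and 39 of 13157, and 0. CASIN against young gave 1 member call and 3 by DESeq2, 3 with no filter, 0 with the limit of 5% and 0 without the batch term. Over all genes these settings called 864 and 405, 964 and 155, 117 and 7, and 0. With the replicate number as a block both comparisons gave 0 member calls (Ifitm3 adjusted p = 0.112 and 0.0681, edgeR), as did the cells not activated. Over all genes 73 rose and 7 fell in aged against young with this block, and 313 and 47 in CASIN against young. Whether the numbers pair the samples could not be told. All pairs from different batches deviated in opposite ways, same-numbered (r of -0.61 and -0.60) or not (-0.87 for aged 1 and CASIN 3). The deviations were taken from group means, so batch set these signs. Within a batch, same-numbered pairs had r from 0.73 (young 1 and aged 1) to 0.89 (young 3 and CASIN 3). Differently numbered pairs had r from 0.64 (young 3 and aged 2) to 0.75 (young 2 and aged 1). These ranges overlap, and the difference between them was not tested. Without the batch term HSC-1-like cells gave 0 calls in aged and in CASIN against young, and so did the cells not activated. Cells not activated, CASIN against young, gave 2 by DESeq2, 2 with no filter and 0 with the limit of 5%. Over all genes 861 rose and 389 fell there by DESeq2, 969 and 154 with no filter and 117 and 8 with the limit of 5%. LMPP-like cells with no filter gave 2 in CASIN against aged and 5 in CASIN against young, beside the counts over all genes given above.

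With 1 sample left out the member calls in aged against young, CASIN against aged and CASIN against young ran from 0 to 2, 0 to 0 and 0 to 3 in all LSK cells, 1 to 4, 0 to 0 and 2 to 5 in HSC-1-like cells, 0 in LMPP-like cells and 0 to 1, 0 to 0 and 0 to 2 in cells not activated. The calls over all genes moved as well. In all LSK cells, aged against young, 26 rose and 5 fell without young 1, and 822 and 123 without young 3. In HSC-1-like cells the 5 calls in CASIN against young came without aged 1, where 1096 of 11854 genes rose and 785 fell. The 4 calls in aged against young came without young 3, where 851 of 11952 genes rose and 514 fell. In cells not activated, CASIN against young, 2 calls came without aged 1, where 1153 of 13831 genes rose and 425 fell. For the class contrast and the interactions, a check chosen after seeing the data, the member calls ran from 17 to 19, 0 to 4, 0 to 1 and 2 to 5. Calls over all genes were not counted in these fits, so these ranges have no share beside them. The differences in the activated share ran from -1.72 to -0.824, 0.247 to 0.811 and -1.19 to -0.296 points, and those in the tonic level from -2.44 to 1.41, 0.313 to 4.17 and -0.184 to 3.55 UMIs.

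Signs turned without the batch term in aged against young for Ifit3 (-0.11), Irf7 (-0.31), Ifitm1 (-0.17) and Ifi44 (-0.03) and in CASIN against aged for Isg15 (0.14), Irf7 (0.07), Bst2 (0.02), Ifitm1 (0.31), Ifitm3 (0.13) and Ifi27l2a (0.07). Stat2 in CASIN against aged was 0.02 with no filter and 0.00 with the limit of 5%. The activated share in CASIN against aged was -0.0444 points when thinned to 2000 UMIs, the tonic level in aged against young was -0.575 with the limit of 5% and -0.511 without the Ifitm genes, and in CASIN against young -0.111 without them. With 1 sample left out the log2 fold change also crossed 0 in aged against young for Isg15 (-0.65 to 0.13), Ifit3 (-0.05 to 1.04), Irf7 (-0.42 to 0.64), Stat2 (-0.00 to 0.35), Ifitm2 (-0.05 to 0.13) and Ifi27l2a (-1.23 to 0.33), in CASIN against aged for Stat2 (-0.11 to 0.08), Ifitm1 (-0.16 to 0.13), Ifitm2 (-0.13 to 0.04), Ifitm3 (-0.17 to 0.10) and Ifi27l2a (-0.91 to 0.11), and in CASIN against young for Ifit3 (-1.09 to 0.06), Irf7 (-0.50 to 0.12), Bst2 (-0.06 to 0.13) and Ifitm2 (-0.05 to 0.04). The causes were not tested.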

Other observations

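Iigp1, although it was left out of the clustering, was among the 10 leading genes of the 894 HSC-3-like cells, a class led by the MHC class II genes Cd74, H2-Aa and H2-Eb1, together with Ly6a. There it was at 31.2, 52.4 and 65.0 CPM in young, 45.8, 116 and 16.0 CPM in aged and 50.3, 107 and 20.7 CPM in CASIN samples, which overlap, with aged 2 and CASIN 2 the high ones. Ifi27l2a was likewise among the 10 leading genes of cluster 6, 657 cells with no name, next to Ccl5.

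A small group of cells with 10 or more UMIs of Rsad2 after thinning was noticed in the data and chosen after its values were seen, so only values are given. There were 13 such cells, 11 of them also activated, in 5 classes, and 12 came from batch 2 (6 in young 3, 2 in aged 2, 3 in aged 3 and 1 in CASIN 3) and 1 from batch 1 (CASIN 2), with 6842 and 8682 cells read in these batches. After thinning, their means were 23.9 UMIs of Rsad2, 5.00 of Ifit1, 3.00 of Oasl1, 3.62 of Isg15 and 1.69 of Ifih1, and they held 0 UMIs of Irf7, Usp18, Irf9, Zbp1, Iigp1 and Gbp2 (before thinning, 2 UMIs of Irf7 and 1 of Usp18). The other 160 activated cells had means of 0.788 for Rsad2, 0.831 for Ifit1 and 0.544 for Irf7. In the remaining cells the means were 0.0562 for Irf7, 0.0115 for Usp18, 0.13 for Irf9, 0.0319 for Zbp1, 0.0846 for Iigp1 and 0.0745 for Gbp2. At those levels 13 cells would hold few or no UMIs of these genes, so the counts of 0 are near the floor.

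Before thinning, Ifnb1, the gene of IFN-β, had 3 UMIs in all 15856 cells kept, and all 3 were in 2 of these 13 cells, 1 in aged 2 and 1 in aged 3. The single UMI of Ifna16 was in 1 of them, in aged 2. Cxcl10, a chemokine gene, had 2377 UMIs in all cells, of which 482 (20.3%) were in the 13 cells. In HSC-1-like cells Cxcl10 had 1, 14 and 215 UMIs in young, 4, 18 and 3 in aged and 4, 3 and 9 in CASIN samples, with young 3 the one that stands apart.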
